A study of Homo sapiens with 26 samples.

Results

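The FKBP5 locus on human chromosome 6 held 9 of the 10740 glucocorticoid receptor (GR) binding regions in the authors' table. Its members are the 400-bp regions that start between 35.5 and 35.8 Mb in build hg38. Within the locus they were thus chosen by position and not by signal. The locus itself was chosen with earlier results of these data known. The regions come from chromatin immunoprecipitation sequencing (ChIP-seq) of GR in A549, a human lung carcinoma epithelial cell line of wild-type genotype. All cells had been infected with an adenovirus, either the control Ad-GFP or Ad-IκBαΔN, which blocks the transcription factor NF-κB. For each virus there were 3 groups, namely cells left unstimulated (NS), cells given 300 nM budesonide, a synthetic glucocorticoid (Bud), and cells given 300 nM budesonide with 1 ng/ml interleukin-1β (I+B), all for 1 h. No GR group received interleukin-1β (IL1B) alone. Of 26 libraries, 12 were GR libraries, with 2 in each of the 6 groups from 2 independent experiments, while the other 12 (RELA) and 2 (input) were not used here.

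FKBP5 encodes FKBP51, an immunophilin that joins the HSP90 complex holding unliganded GR and lowers the affinity of the receptor for hormone. Ligand-bound GR enters the nucleus, binds DNA at glucocorticoid response elements (GREs), which are inverted repeats separated by a short spacer, and induces FKBP5. The gene therefore takes part in a negative feedback loop on GR and is widely used as a readout of glucocorticoid action. IL1B activates NF-κB, and IκBα keeps NF-κB out of the nucleus.

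The table gave 1 authors' value per region and group, with both libraries of a group behind it, so no difference below has a replicate check and none carries an SD or a p-value. Values are printed as signal, the deposited log2 value taken back to a linear scale, which read as a mean coverage per base. Differences are log2 differences of (signal + 1), and a region is called higher or lower when the difference is at least 1 in size, that is 2-fold. The depth of the libraries is unknown, and the scale of the groups may differ. Results were therefore recomputed under 4 scalings. These re-centred all groups on 1 median, gave them the same quantiles, centred them on the regions that the authors classed as unchanged, or divided each group's signal by the smallest step between its values (3 in Ad-GFP I+B, 1.5 in Ad-IκBαΔN I+B and 1 or not found elsewhere). Over all regions the median signal was 7.58 in NS, 21.7 in Bud and 45.7 in I+B cells with Ad-GFP, and 7.79, 21.6 and 23.6 with Ad-IκBαΔN.

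FKBP5 lies on the minus strand at chr6:35573585-35728583. GENCODE 44 gives it a distal transcription start site (TSS) at 35728583, used by transcript FKBP5-202 with 12 exons, and a proximal one at 35688915, used by FKBP5-201 with 11 exons, 39.7 kb apart. Within the gene body lay 6 of the 9 regions, all intronic. In FKBP5-201, intron 7 held chr6:35590604-35591003, intron 5 held chr6:35601885-35602284 and intron 2 held chr6:35640071-35640470. Between both start sites lay chr6:35715418-35715817 (13.0 kb downstream of the distal TSS, in intron 2 of FKBP5-202), chr6:35722487-35722886 (5.9 kb downstream, in intron 1) and chr6:35727581-35727980 (0.8 kb downstream, in intron 1). One intergenic region, chr6:35731832-35732231, lay 3.4 kb upstream of the distal TSS. The remaining 2 regions were in neighbouring genes, chr6:35778429-35778828 in intron 2 of CLPSL2 and chr6:35782416-35782815 in intron 1 of CLPSL1, both colipase-like genes. None of the 9 overlapped the RefSeq promoter windows of FKBP5 (GRCh38.p14), which span chr6:35728534-35728833 and chr6:35688866-35689165. Windows of 300 kb that start at a region held a median of 3 regions, and 6.84% of them held at least 9.

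**Figure D1:**
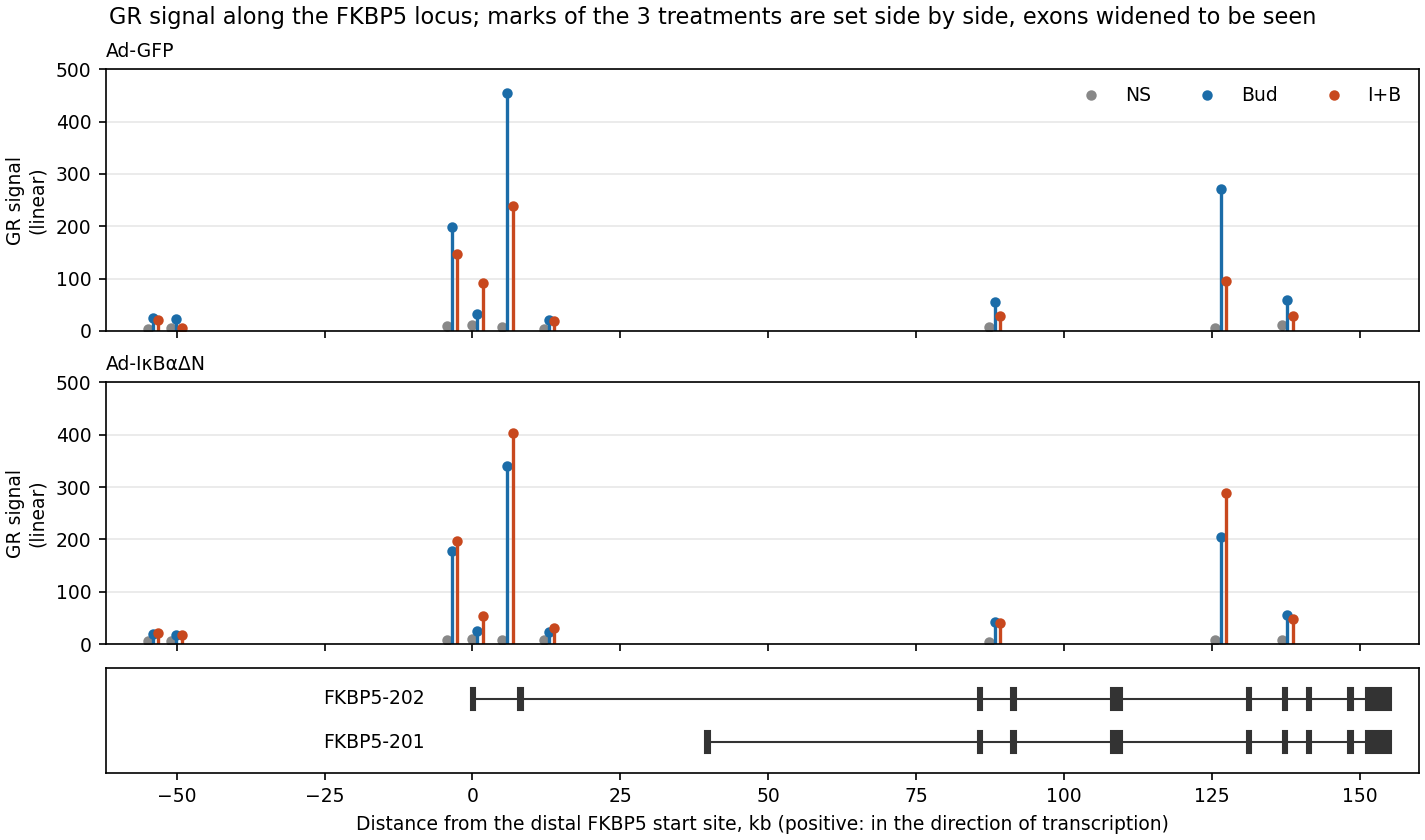
GR signal (y axis, linear scale) of the 9 regions by distance from the distal FKBP5 TSS (x axis, kb, positive in the direction of transcription) in NS, Bud and I+B cells of each virus, above the exons of both FKBP5 transcripts, with the marks of a region set side by side and exons widened. With Bud in Ad-GFP the regions 5.9 kb downstream (455), in intron 5 (271) and 3.4 kb upstream (199) stand above the other 6, which lie between 20.8 and 59.4.

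The sequences below are shown because these 4 regions held the closest matches to the GRE among the 9, and because the first 3 carried 81.2% of the summed signal of the locus in Ad-GFP cells given Bud. The GRE searched on both strands was AGAACA, any 3 bases, then TGTTCT, which makes 12 fixed bases, and capitals mark the 15-base match. Each is 55 bases of hg38, read 5′ to 3′ on the plus strand.
Intron 5, chr6:35602062-35602116: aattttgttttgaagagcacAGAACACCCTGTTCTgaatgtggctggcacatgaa
5.9 kb downstream, chr6:35722515-35722569: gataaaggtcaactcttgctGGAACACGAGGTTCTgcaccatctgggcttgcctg
3.4 kb upstream, chr6:35731998-35732052: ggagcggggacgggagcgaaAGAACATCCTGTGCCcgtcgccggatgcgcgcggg
CLPSL1 intron 1, chr6:35782585-35782639: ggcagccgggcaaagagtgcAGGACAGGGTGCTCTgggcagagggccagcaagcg

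The intron 5 element matched the GRE at all 12 fixed bases, 4 bp from the centre of its region. Such an exact match was found in 44 of the 10740 regions, or 0.410%. The other 3 elements had 2 mismatches each. Counting from 1 at the 5′ end of the GRE, the element 5.9 kb downstream carried A1G and T10G, that 3.4 kb upstream T13G and T15C, and that of CLPSL1 A3G and T12C. The last pair lay 7 and 4 bp from the centre of their regions, whereas the element 5.9 kb downstream lay 145 bp from the centre. With at most 2 mismatches, 4 of the 9 regions held a match against 14.7% of all regions.

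Because the region 5.9 kb downstream had the highest signal of the locus with Bud, its first 300 bases are given, chr6:35722487-35722786, with capitals for the closest GRE match and for the half-site AGAACA further along. With at most 3 mismatches the region held 2 GRE matches, and the other one is left in lower case.
5.9 kb downstream, first 300 bases: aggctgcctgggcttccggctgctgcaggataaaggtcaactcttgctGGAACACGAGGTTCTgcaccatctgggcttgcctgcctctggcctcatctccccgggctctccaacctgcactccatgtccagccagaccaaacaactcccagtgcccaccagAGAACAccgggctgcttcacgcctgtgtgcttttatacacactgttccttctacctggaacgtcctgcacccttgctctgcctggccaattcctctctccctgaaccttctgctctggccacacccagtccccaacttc

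With at most 3 mismatches, 3 more regions had an element, and those of intron 7 and CLPSL2 are shown for comparison with the closer matches.
Intron 7, chr6:35590907-35590961: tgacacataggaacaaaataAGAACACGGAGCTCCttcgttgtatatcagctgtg
CLPSL2 intron 2, chr6:35778614-35778668: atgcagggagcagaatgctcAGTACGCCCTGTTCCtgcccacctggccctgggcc

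These carried T10A, T12C and T15C in intron 7, and A3T, A6G and T15C in CLPSL2. In all, 7 of the 9 regions had a match at this looser setting against 45.1% of all regions. The closest site 13.0 kb downstream had 4 mismatches, and that 0.8 kb downstream had 5. Half-sites (AGAACA, which is also the left arm of the GRE) were present in 6 of the 9 against 41.8%. No region of the locus held an exact κB motif, the NF-κB element, which occurred in 21.3% of all regions. That share was 40.3% in the authors' increasing class, 11.8% in the unchanged and 4.49% in the decreasing class, and 8 of the 9 members belonged to the last 2. With 1 mismatch allowed it was found in 5 of the 9 against 63.5%. An AP-1 motif (TGACTCA) was found in intron 2 alone among the 9, against 22.8% of all regions. C/EBP (TTGCNNAA) and forkhead (TGTTTNC) motifs were in 0 of the 9 against 29.3% and 43.0%. All of these were searched on both strands, and a match describes the letters only.

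Base composition differed widely along the locus. The region 3.4 kb upstream was 73.2% G and C, above 99.4% of all regions, and that 0.8 kb downstream was 67.0%. The region 5.9 kb downstream had 55.5%, and the other 6 lay between 39.5% and 51.2%. The median over all regions was 44.5%.

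In unstimulated cells GR signal was low across the locus. With Ad-GFP the 9 regions ranged from 3.98, at 13.0 kb downstream, to 11.8 in intron 7. With Ad-IκBαΔN they ranged from 4.88 in intron 2 to 9.65 at 0.8 kb downstream. The 3 regions that were highest with Bud did not stand apart here, with 5.02 in intron 5, 8.10 at 5.9 kb downstream and 8.62 at 3.4 kb upstream in Ad-GFP. Between the viruses 0 of the 9 NS values differed by 2-fold, where 7.21% of all regions were higher in Ad-IκBαΔN and 2.77% lower. Quantile normalization of the groups made 2 of the 9 higher and 1 lower, against 19.3% and 19.7% of all regions.

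With budesonide alone the deposited signal was higher at every region of the locus, by 2.85-fold to 50.1-fold in Ad-GFP on the signal + 1 scale. All 9 were at least 2-fold higher, against 57.9% of all regions, and their median log2 difference was 2.25 against 1.37 over all regions. The 3 strongest regions were far above the rest, and they kept a difference of at least 1 under every scaling tried. The number of 2-fold regions was 4 of 9 after re-centring the groups, 5 when quantile normalized and 3 with centring on the unchanged class. The all-region shares were then 24.3%, 22.0% and 14.4%. No member was 2-fold lower, against 8.14% of all regions.

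The lead region, 5.9 kb downstream, had a signal of 8.10 in NS and 455 in Bud cells with Ad-GFP, and 7.56 and 340 with Ad-IκBαΔN. With Bud, 16 of the 10740 regions were higher than it in Ad-GFP, and 20 were with Ad-IκBαΔN. Intron 5 went from 5.02 to 271 and from 8.83 to 204, log2 differences of 5.50 and 4.38. Of the 44 regions with an exact GRE, 1 had a higher Bud signal in Ad-GFP than intron 5, and the median of the 44 was 31.4. The region 3.4 kb upstream went from 8.62 to 199 and from 7.51 to 178, which was 20.8-fold and 21.1-fold on the signal + 1 scale.

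The other 6 regions formed a lower tier. Intron 7 had 11.8 in NS and 59.4 in Bud cells with Ad-GFP and 8.45 and 56.5 with Ad-IκBαΔN. Intron 2 had 8.45 and 54.6, and then 4.88 and 42.1. These 2 intronic regions were thus between 4.73-fold and 7.33-fold higher with Bud on the signal + 1 scale. At 13.0 kb downstream the signal was 3.98 and 20.8 with Ad-GFP and 7.83 and 23.4 with Ad-IκBαΔN. CLPSL2 had 5.38 and 23.4, and then 5.90 and 17.8. CLPSL1 had 4.28 and 24.1, and then 6.86 and 18.9. These 3 stood near the median Bud signal of all regions. The smallest log2 differences of the locus were at 0.8 kb downstream, where the signal was 10.7 and 32.4 with Ad-GFP (1.51) and 9.65 and 24.4 with Ad-IκBαΔN (1.26), and both turned below 0 with quantile normalization or with centring on the unchanged class.

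In Ad-IκBαΔN cells all 9 regions were again at least 2-fold higher with Bud, against 59.3% of all regions, with a median of 2.60 against 1.37. After re-centring and after quantile normalization 5 of the 9 were higher, against 18.9% and 21.5% of all regions. Centring on the unchanged class left 4, against 10.2%. None was 2-fold lower, against 1.06% of all regions. Set directly against each other, the Bud groups of both viruses differed by less than 2-fold at all 9 regions, where 4.02% of all regions were higher in Ad-IκBαΔN and 0.0186% lower. The differences ran from -0.42 at the lead region to 0.16 at 13.0 kb downstream, and 8 of the 9 were below 0, against an all-region median of 0.02. Of these 8, intron 7 was nearest 0, at -0.07 and percentile 38.3 of all regions. Quantile normalization turned 2 of these 8, intron 7 (0.08) and 3.4 kb upstream (0.05), to above 0.

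**Figure D2:**
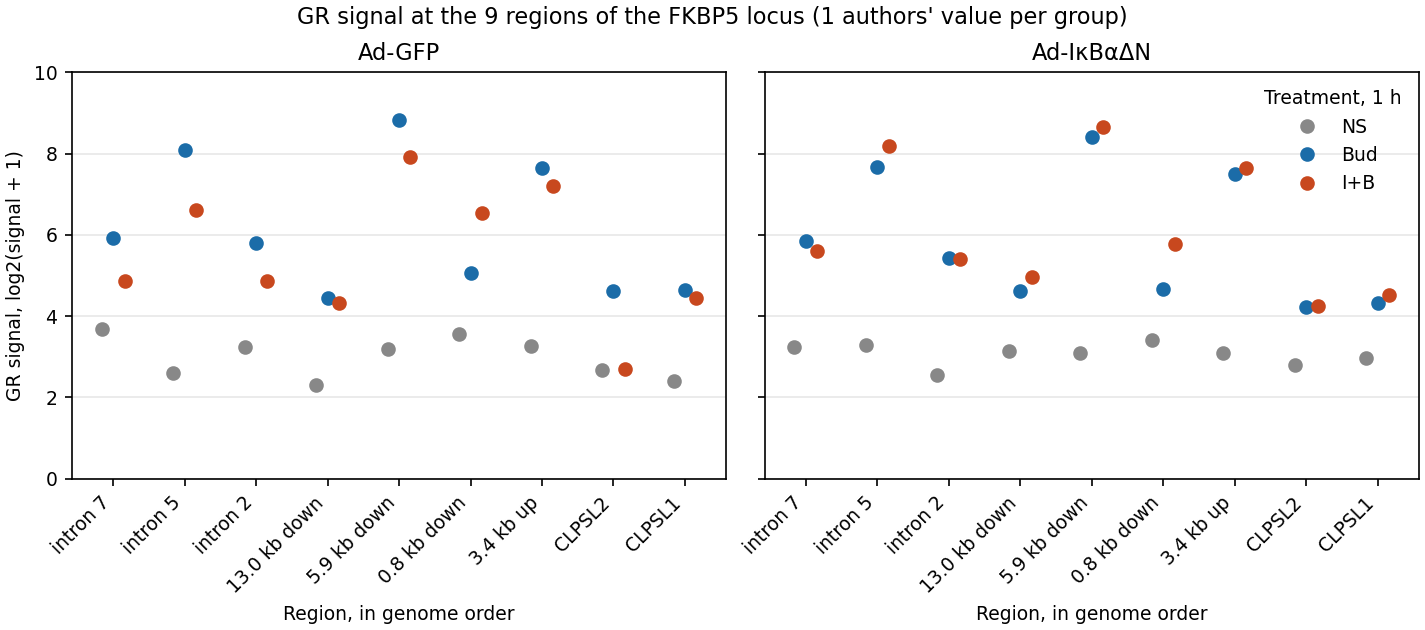
GR signal as log2(signal + 1) (y axis) of the 9 FKBP5 locus regions (x axis, genome order) in NS, Bud and I+B cells of each virus, 1 authors' value per point and no error. In NS, Bud and I+B cells the lead region reads 3.19, 8.83 and 7.91 with Ad-GFP, then 3.10, 8.41 and 8.66 with Ad-IκBαΔN, and CLPSL2 intron 2 reads 2.67, 4.61 and 2.70 with Ad-GFP.

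In Ad-GFP cells, GR signal at most of the locus was lower with IL1B and budesonide together than with budesonide alone. As deposited, 8 of the 9 log2 differences were below 0. The one nearest 0, -0.13 at 13.0 kb downstream, stood at percentile 27.1 of all regions, so about that share or more was below 0. At least 2-fold lower were 3 regions, against 6.07% of all regions, and 1 was higher, against 48.9%. The median of the 9 was -0.92 where that of all regions was 0.92. The size of this depended on the scale of the groups. At least 2-fold lower were 8 of 9 after re-centring, against 32.1% of all regions, and 8 with the steps divided out, against 43.7%. Quantile normalization gave 7 lower, against 26.9%, and centring on the unchanged class 5, against 16.3%. In each setting 0 were higher, against 37.0%, 30.3%, 25.5% and 43.1% of all regions in this order. Against other regions, 8 of the 9 stood below the all-region median as deposited. This cannot change where every region of a group is shifted alike. Dividing out the steps, which also gave 8, comes close to such a shift at high signal. The count was 8 of the 9 when quantile normalized as well.

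CLPSL2 intron 2 had the lowest difference, from 23.4 with Bud to 5.49 with I+B, a log2 difference of -1.91. On the deposited scale this was close to its NS signal of 5.38, but under the 4 scalings it stood below NS, by -1.17 with the steps divided out to -2.42 after re-centring. Just 11 of the 10740 regions had a lower I+B signal in Ad-GFP. Intron 5, with the exact GRE, went from 271 to 96.3 (-1.48), and intron 7 from 59.4 to 28.0 (-1.06). Intron 2 went from 54.6 to 28.1 (-0.93) and the lead region from 455 to 240 (-0.92), both just inside 2-fold. The remaining negative differences were smaller, -0.44 at 3.4 kb upstream (199 to 146), -0.22 at CLPSL1 (24.1 to 20.6) and -0.13 at 13.0 kb downstream (20.8 to 18.9). With the lead region at 240, 231 other regions of the table were higher in I+B cells, compared with the 16 in Bud cells.

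The region 0.8 kb downstream of the distal TSS went the other way. Its signal was 32.4 with Bud and 91.9 with I+B, a log2 difference of 1.48, and this was the highest of the 9, also when quantile normalized and with the steps divided out, although in the latter it was -0.08. This GC-rich region held no GRE match within 3 mismatches, no half-site and no exact κB motif, and it held 2 κB matches with 1 mismatch. The region 3.4 kb upstream, with a difference of -0.44, was richer in G and C and also held 2 κB matches with 1 mismatch. It did hold a half-site and a GRE match with 2 mismatches.

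Relative to NS, I+B left 8 of the 9 regions at least 2-fold higher in Ad-GFP, against 93.7% of all regions, with a median of 2.04 against 2.49. The highest were the lead region at 4.72, intron 5 at 4.01, 3.4 kb upstream at 3.93 and 0.8 kb downstream at 2.99. CLPSL2 was the exception at 0.02, percentile 0.447 of all regions, and it was at least 2-fold lower than NS under all 4 scalings. Re-centring left 3 of 9 higher and 2 lower, quantile normalization 3 and 3, centring on the unchanged class 3 and 2, and dividing out the steps 4 and 1. The all-region shares higher were 19.3%, 19.9%, 19.7% and 48.7% in this order, and the shares lower 14.5%, 19.9%, 14.0% and 1.31%.

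In cells with the NF-κB inhibitor, the deposited differences between I+B and Bud were smaller in size at all regions other than that 13.0 kb downstream. In Ad-IκBαΔN cells 1 of the 9 regions was at least 2-fold higher with I+B than with Bud, against 9.65% of all regions, and 0 were lower, against 0.94%. The median was 0.20 against 0.26 over all regions. The lead region read 340 and 404 (0.25), intron 5 204 and 288 (0.50) and 3.4 kb upstream 178 and 198 (0.15). CLPSL2 read 17.8 and 18.0 (0.01), CLPSL1 18.9 and 21.8 (0.20) and 13.0 kb downstream 23.4 and 30.1 (0.35). Intron 2 read 42.1 and 41.0 (-0.04) and intron 7 56.5 and 47.9 (-0.23). The region beyond 2-fold was again that 0.8 kb downstream, with 24.4 and 53.3 (1.09), and it fell short of 2-fold after re-centring, after quantile normalization and with the steps divided out. In these settings 5.81%, 0.885% and 0.875% of all regions were at least 2-fold higher. With the steps divided out the other 8 were all below 0, where the all-region median was -0.29.

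Relative to NS, all 9 regions were at least 2-fold higher with I+B in Ad-IκBαΔN, against 69.1% of all regions, and 0 were lower, against 0.0466%, with a median of 2.37 against 1.48. The lead region was at 5.57 and intron 5 at 4.88. Only 4 of 9 were 2-fold higher after re-centring and after quantile normalization, 3 centred on the unchanged class and 7 with the steps divided out, with none lower. Of all regions 16.7%, 20.7%, 9.34% and 46.9% were higher in this order, and 13.2%, 21.2%, 28.3% and 0.372% lower.

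The I+B groups of both viruses were compared directly. In Ad-IκBαΔN 2 of the 9 regions were at least 2-fold higher, against 5.97% of all regions, and 0 lower, against 46.5%. They were intron 5 (96.3 in Ad-GFP, 288 in Ad-IκBαΔN, 1.57) and CLPSL2 (5.49 and 18.0, 1.55). Only the region 0.8 kb downstream was lower as deposited, with 91.9 and 53.3 (-0.77), but re-centring made this 0.15, quantile normalization 0.13 and dividing out the steps 0.21, while centring on the unchanged class left it at -0.31. The median of the 9 was 0.64 and that of all regions -0.85. After re-centring, quantile normalization or division by the steps 7 of the 9 were at least 2-fold higher, and 5 were with centring on the unchanged class. The all-region shares were 25.4%, 24.5%, 25.7% and 14.3% in this order.

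The virus difference, that is I+B against Bud in Ad-IκBαΔN minus the same in Ad-GFP, was above 0 at 8 of the 9 regions. The lowest of these 8, 0.42 in CLPSL1, stood at percentile 80.6 of all regions, and the remaining region, at -0.38, at percentile 59.5. The virus difference was at least 1 at 3 of the 9, against 7.98% of all regions, and at most -1 at 0, against 47.4%. The values were 1.98 in intron 5, 1.93 in CLPSL2, 1.17 at the lead region, 0.90 in intron 2 and 0.83 in intron 7. Lower values were seen at 3.4 kb upstream (0.59), 13.0 kb downstream (0.48) and CLPSL1 (0.42), and the region 0.8 kb downstream stood last at -0.38, a value that was above 0 under all 4 scalings. All 9 lay above the all-region median of -0.84, and all 9 did so when quantile normalized. Dividing out the steps also left all 9 above, but it shifts high signals nearly alike and could hardly change this. The count of regions at or above 1 was 8 after re-centring or division by the steps, 7 when quantile normalized and 5 with centring on the unchanged class. The all-region shares were then 28.0%, 28.5%, 24.8% and 15.5% in this order.

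**Figure D3:**
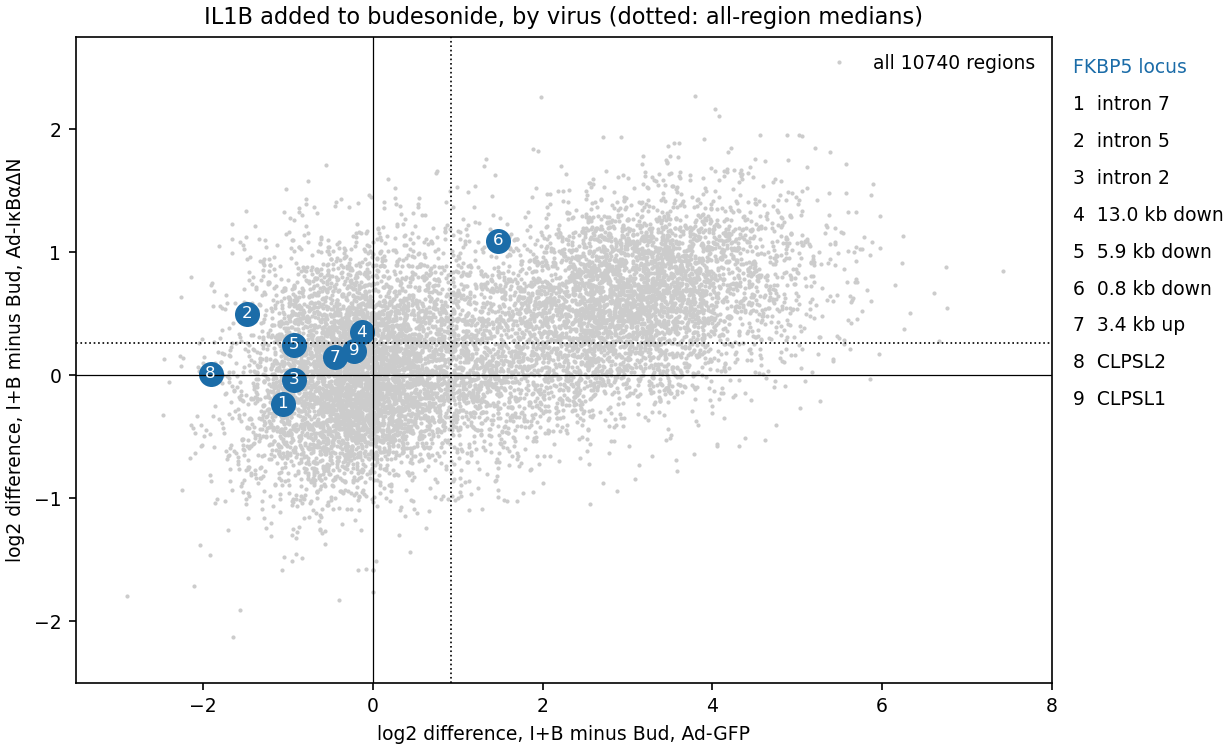
Log2 difference in GR signal between I+B and Bud in Ad-GFP (x axis) against that in Ad-IκBαΔN (y axis), for all 10740 regions (grey) and the 9 regions of the FKBP5 locus (numbered blue points), with dotted lines at the all-region medians of 0.92 and 0.26. All but number 6, the region 0.8 kb downstream, lie left of 0 on the x axis.

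Shares of the summed signal of the 9 regions do not depend on a scale factor that multiplies a whole group. The sum was 66.3 in NS, 1140 in Bud and 675 in I+B cells with Ad-GFP, and 67.5, 906 and 1102 with Ad-IκBαΔN. With Bud the lead region held 39.9% of the Ad-GFP sum and 37.6% of the Ad-IκBαΔN sum, intron 5 held 23.8% and 22.5%, and 3.4 kb upstream held 17.4% and 19.7%. The division of the signal among regions with Bud was thus close in both viruses.

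With I+B the shares moved apart. In Ad-GFP intron 5 went from 23.8% to 14.3%, 3.4 kb upstream from 17.4% to 21.6%, and the lead region from 39.9% to 35.5%. The region 0.8 kb downstream went from 2.84% to 13.6%, and CLPSL2 from 2.05% to 0.813%. In Ad-IκBαΔN intron 5 went up instead, from 22.5% to 26.2%, while the lead region went from 37.6% to 36.7% and 3.4 kb upstream from 19.7% to 17.9%. There the region 0.8 kb downstream went from 2.70% to 4.84%. The ratio of intron 5 to the lead region was 0.595 with Bud and 0.402 with I+B in Ad-GFP, against 0.599 and 0.713 where NF-κB was inhibited. After the NS signal of each region was taken off, the share of intron 5 in Ad-GFP went from 24.8% to 15.0% and that of 0.8 kb downstream from 2.02% to 13.3%. Unlike the shares above, these depend on the scale of the NS group relative to the other group.

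**Figure D4:**
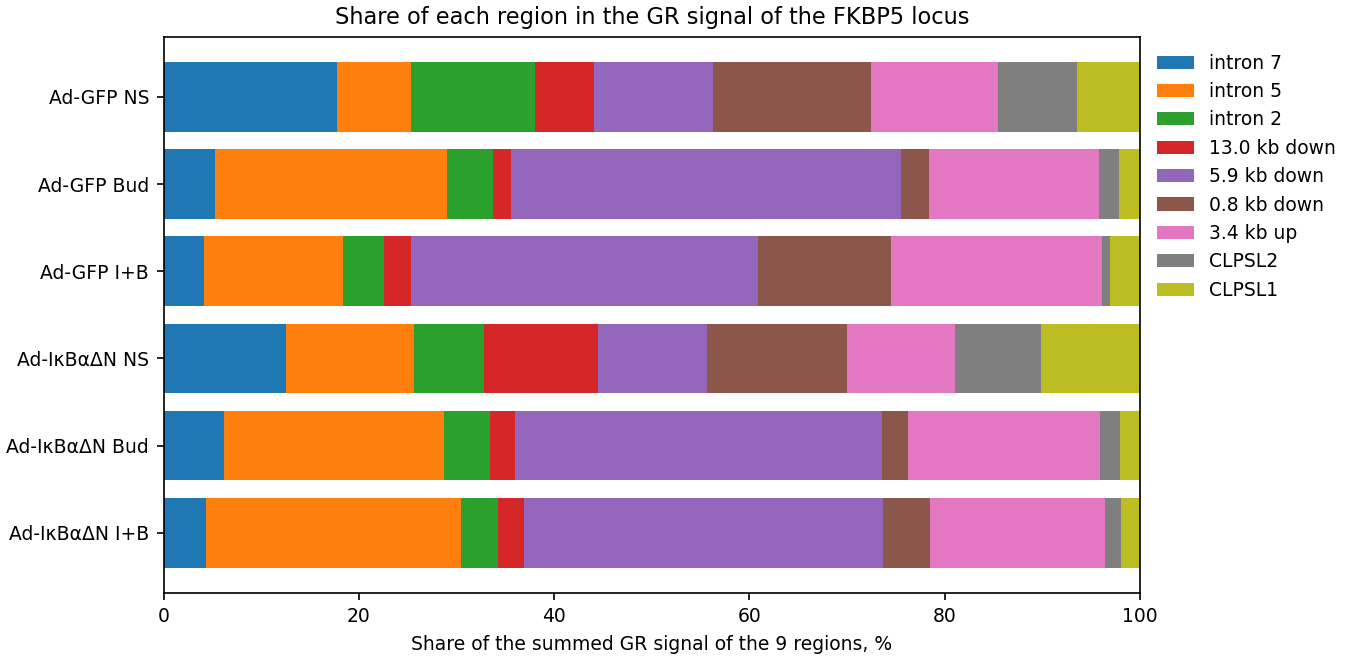
Share of the summed GR signal of the 9 regions (x axis, percent) held by each region (coloured segments) in each of the 6 groups (bars), 1 authors' value per group and no error. In Ad-GFP with I+B the region 0.8 kb downstream holds 13.6% and intron 5 14.3%, where with Bud they hold 2.84% and 23.8%.

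The authors placed each region in a class, increasing, unchanged or decreasing, by a rule that the sources used here do not give. Of the 9 regions, 1 was increasing (0.8 kb downstream), 2 were unchanged (5.9 kb downstream and 3.4 kb upstream) and 6 were decreasing, against 4345, 3411 and 2984 of all regions. The only increasing member was also the only one above 0 for I+B against Bud in Ad-GFP, and the member medians were -0.68 in the unchanged and -0.997 in the decreasing class, beside 0.35 and -0.37 over all regions of those classes. The unchanged and decreasing members overlapped, since the unchanged lead region, at -0.92, stood beside intron 2 in the decreasing class, at -0.93, and 13.0 kb downstream and CLPSL1 were decreasing at -0.13 and -0.22. The increasing class had a median difference of 2.95 in Ad-GFP and 0.53 with Ad-IκBαΔN. The region 0.8 kb downstream, with 1.48 and 1.09, stood at percentile 12.5 of that class in Ad-GFP and 88.8 in Ad-IκBαΔN. Its difference between viruses, -0.38, was at percentile 95.9 of the class, whose median was -2.41.

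The regions elsewhere in the table whose values over the 6 groups were most like those of the lead region were nearest to TBC1D8, LEKR1, ERGIC1, CAMK1G and NNMT. Their root mean square difference from the lead region, after each was centred on its own mean, was 0.09 to 0.17 log2. The closest, chr2:101120558-101120957, 30.5 kb from the TSS of TBC1D8, read 7.33, 389 and 217 in NS, Bud and I+B cells with Ad-GFP and 7.35, 299 and 412 with Ad-IκBαΔN. The pattern of the lead region was therefore shared by regions near other genes.

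Other glucocorticoid-induced genes were described from a list of 30, without FKBP5, of which 29 had a region within 100 kb of a TSS, 97 regions in all. With Bud against NS in Ad-GFP, 74 of the 97 were at least 2-fold higher, against 57.9% of all regions, and 3 lower, against 8.14%. The median was 2.62 beside 2.25 at the FKBP5 locus and 1.37 over all regions. With I+B against Bud in Ad-GFP 28 were higher, against 48.9% of all regions, and 19 lower, against 6.07%. The median was -0.06 beside -0.92 at the locus and 0.92 over all regions. The difference between viruses was at least 1 at 23, against 7.98% of all regions, and at most -1 at 31, against 47.4%. Its median was 0.01 beside 0.83 at the locus and -0.84 over all regions. These splits moved with the scale. Bud against NS gave 52 higher and 19 lower after re-centring, 45 and 9 when quantile normalized and 39 and 22 with centring on the unchanged class. The all-region shares were 24.3% and 32.6%, 22.0% and 22.5%, and 14.4% and 40.7% in this order. With the steps divided out I+B against Bud in Ad-GFP gave 13 higher and 60 lower, against 30.3% and 43.7% of all regions. The difference between viruses then gave 45 and 15, against 28.5% and 30.6%. HIF3A, which encodes a hypoxia-inducible factor subunit, had a lead region that read 368 with Bud and 116 with I+B in Ad-GFP, against 304 and 364 with Ad-IκBαΔN. SLC19A2, a thiamine transporter gene, read 291 and 112, and then 240 and 396. DDIT4, which encodes an inhibitor of mTORC1 signalling, read 386 and 217, and then 295 and 419. KLF9, a transcription factor gene, read 249.9 and 177, and then 193 and 252. These 4 were lower with I+B than with Bud in Ad-GFP and higher in Ad-IκBαΔN as deposited. ZFP36, which encodes an mRNA-destabilising protein and had the highest Bud signal of the list, was lower in both, at 997 and 451, and then 883 and 825. DUSP1, a MAP kinase phosphatase gene, went the other way, with 286 and 367, and then 263 and 244.

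Genes of the GR chaperone machinery, to which FKBP51 belongs, had few regions. Of 25 genes listed, which included the receptor genes NR3C1 and NR3C2, 6 had a region within 100 kb of a TSS, 8 regions in all. Both receptor genes were among the 6, so the counts are not of chaperone genes alone. With Bud against NS in Ad-GFP 4 of the 8 were at least 2-fold higher, against 57.9% of all regions, and 1 lower, against 8.14%. The median was 1.00 beside 1.37 over all regions. It was -0.41 after re-centring and -0.92 with centring on the unchanged class, beside -0.03 and -0.55 over all regions. The highest Bud signal was near HSPA8, which encodes a constitutive HSP70 chaperone, at 108, compared with 455 at the FKBP5 lead region. With I+B against Bud in Ad-GFP 5 of the 8 were at least 2-fold higher, against 48.9% of all regions, and 2 lower, against 6.07%. The median was 2.65 beside 0.92, and 0.90 beside -0.13 when quantile normalized. The lead regions of HSPA8 (-1.48), HSPH1 (-1.14) and DNAJB1 (-0.22) were lower, and those of NR3C1, DNAJA1 and NR3C2 higher. NR3C1, the gene of GR itself, had its lead region 60.3 kb from the TSS, with 3.25 in NS, 8.55 in Bud and 61.4 in I+B cells with Ad-GFP and 7.35, 7.96 and 13.4 with Ad-IκBαΔN.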

How the data were processed

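GR ChIP-seq of A549 cells was used from 6 groups of 2 libraries. The authors deposited 1 log2 binding intensity per region and group. Its Ad-IκBα groups were taken as the labels' Ad-IκBαΔN. Per the submitters' processing notes Bowtie2 2.4.4, MACS2 2.2.7.1, DiffBind 3.2, SAMtools, FastQC 0.10.1 and bcl2fastq were among the tools, and the build was GRCh38 (hg38). How libraries were combined and scaled, and how classes were made, are not given in the sources used here.

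From the numbers, values were read as log2(signal + 1). Signal times 400 bp was a whole number of steps (within 0.0001 steps), the step being 1 in Ad-GFP NS, Ad-GFP Bud and Ad-IκBαΔN Bud, 3 in Ad-GFP I+B and 1.5 in Ad-IκBαΔN I+B, except for 1 region of Ad-GFP NS. None was found in Ad-IκBαΔN NS. A different scale between groups shifts differences between them by a similar amount at high signal and by less at low signal.

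The planned fit needed values per library, so regions are described by a 2-fold threshold with no test. All comparisons of a virus share its Bud or NS group, so they are not independent of each other. Alternatives were re-centring on 1 median for all groups, quantile normalization, centring on the authors' unchanged class, dividing out the steps, offsets of 0.1 and 5, thresholds of 1.5-fold and 4-fold, and leaving out the 25% of regions with the lowest mean. Shares with the NS signal taken off and the κB motif with 1 mismatch were added after seeing the data. The counting and the motif search were checked on simulated data.

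Every region of the window is given. The regions named as most alike were the 5 outside it with the smallest root mean square difference from the lead region, the member highest with Bud in Ad-GFP. For each list, genes were linked by nearest TSS within 100 kb and named among its 6 highest lead regions. The locus, lists and motifs were chosen with earlier results of these data known. Annotation was GENCODE 44, promoter windows were from RefSeq, and Python 3.11.15, numpy 2.4.6, pandas 2.3.3, pysam 0.24.0 and matplotlib 3.10.9 were used. One sequence element of intron 2 is not reported here.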

Additional observations from a re-analysis of the deposited data

Results flagged for a closer look

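At 6 of the 9 regions, the deposited signal with I+B was lower than with Bud in Ad-GFP cells and higher in Ad-IκBαΔN cells. The share of all regions with this pair of signs was not counted, so 6 of 9 has no background beside it. The difference between viruses (Ad-IκBαΔN minus Ad-GFP) was 1.98 in intron 5, 1.93 in CLPSL2 intron 2, 1.17 at the region 5.9 kb downstream, 0.59 at 3.4 kb upstream, 0.48 at 13.0 kb downstream and 0.42 in CLPSL1 intron 1. None of these differences was tested, since each group has 1 value. The opposite signs depend on the scale of the groups. In Ad-IκBαΔN, CLPSL2 was at 0.01 as deposited and below 0 under all 4 scalings, from -0.08 to -0.53. With the steps divided out the other 5 were below 0 there as well, intron 5 at -0.08, and the differences between viruses stayed above 0.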

How the results depend on the processing

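No paired analysis was possible because the table holds 1 value per group, and for the same reason leaving out each replicate and the replicate block were not run. Counts are of the 9 regions at least 2-fold higher unless said otherwise. The all-region shares under the 4 scalings stand beside the same counts above. Re-centring the groups gave 4 (Ad-GFP) and 5 (Ad-IκBαΔN) for Bud against NS, 0 and 0 for I+B against Bud with 8 lower in Ad-GFP, 3 and 4 for I+B against NS, 7 for Ad-IκBαΔN against Ad-GFP with I+B and 8 for the difference between viruses. Quantile normalization gave 5 and 5, 0 and 0 with 7 lower, 3 and 4, 7 and 7, and 2 for the viruses in NS. Centring on the unchanged class gave 3 and 4 for Bud against NS, 0 with 5 lower for I+B against Bud in Ad-GFP, 3 and 3 for I+B against NS, and 5 and 5. Dividing out the steps gave 0 and 0 with 8 lower for I+B against Bud, 4 for I+B against NS in Ad-GFP, 7 and 8. By construction re-centring and centring on the unchanged class shift every region of a group alike. The other 2 settings do not, but dividing out the steps comes close to it at high signal. The all-region median of I+B against Bud in Ad-GFP moved from 0.92 to -0.12 after re-centring and -0.13 when quantile normalized. It was 0.42 with centring on the unchanged class and -0.61 with the steps divided out. Of the called differences, 12 reversed when centred on the unchanged class. For Bud against NS they were 0.8 kb downstream (-0.41) in Ad-GFP, and 13.0 kb downstream (-0.38), 0.8 kb downstream (-0.59), CLPSL2 (-0.39) and CLPSL1 (-0.51) in Ad-IκBαΔN. For I+B against NS they were intron 7 (-1.24), intron 2 (-0.80), 13.0 kb downstream (-0.42) and CLPSL1 (-0.39) in Ad-GFP, and 13.0 kb downstream (-0.12), CLPSL2 (-0.47) and CLPSL1 (-0.40) in Ad-IκBαΔN. Re-centring reversed 7, namely Bud against NS in Ad-IκBαΔN at 0.8 kb downstream (-0.11) and CLPSL1 (-0.025), I+B against NS in Ad-GFP at intron 7 (-1.26), intron 2 (-0.82), 13.0 kb downstream (-0.45) and CLPSL1 (-0.41), and I+B against NS in Ad-IκBαΔN at CLPSL2 (-0.022). Quantile normalization reversed 6, Bud against NS at 0.8 kb downstream (-0.31 and -0.78 in the 2 viruses) and I+B against NS in Ad-GFP at intron 7 (-1.72), intron 2 (-1.01), 13.0 kb downstream (-0.11) and CLPSL1 (-0.090). Dividing out the steps reversed 2, I+B against Bud in Ad-GFP at 0.8 kb downstream (-0.078) and I+B against NS in Ad-GFP at intron 7 (-0.31). A 1.5-fold threshold gave 5 lower for I+B against Bud in Ad-GFP, 2 and 5 higher between viruses in NS and I+B, and 6 for the difference between viruses. The all-region shares were 14.1%, 19.0%, 13.1% and 15.8% in this order. A 4-fold threshold gave 5 for Bud against NS in Ad-IκBαΔN, 0 higher and 0 lower for I+B against Bud in Ad-GFP, 0 in Ad-IκBαΔN, 5 for I+B against NS in Ad-GFP, and 0 and 0 between viruses with I+B and for their difference. The all-region shares were 28.1%, 37.5%, 0.242%, 0.0372%, 68.8%, 0.568% and 0.847% in this order. An offset of 5 gave 0 for I+B against Bud in Ad-IκBαΔN, against 2.57% of all regions. Leaving out the lowest 25% of regions left 8 members and gave 1 for the viruses with I+B, against 7.24% of the regions kept. A GRE with at most 1 mismatch was found in 1 region and with at most 3 in 7, and Pearson correlation shared 2 of the 5 regions most like the lead region. The offset of 0.1 moved no count by over 1.5 times.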
